A study of Rattus norvegicus with 9 samples.

Results

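Aminoacyl-tRNA synthetases are the enzymes that join each amino acid to its own tRNA. Their genes were taken by symbol: a one-letter amino acid code followed by "ars", with or without a closing 1 or 2, together with Eprs, Farsa, Farsb, Fars2 and Pars2. This gave 37 of the 18006 genes with values, 20 for cytosolic enzymes and 17 for mitochondrial enzymes, whose symbols end in 2. All 37 had a value in every sample. No measured value was used to choose them.

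RNA was sequenced from 3 groups of 3 samples of RBL-2H3, a rat line of basophilic leukemia origin that serves as a mast cell (MC) model. The IgE/DNP group had 12 h with anti-DNP IgE at 50 ng/mL and then 4 h with the antigen DNP-HSA at 100 ng/mL. The PF group had the same IgE and antigen with 1 h of pretreatment with PF, an agent that neither the labels nor the paper identifies, and its 3 samples carry stimulation times of 4, 5 and 6 h in one label field while another field gives 4 h. The Ctrl group is called untreated in one field although the protocol field describes IgE and antigen, so whether it received IgE is not settled. All samples come from this single line. The labels do not say whether the replicates were separate cultures, and the study speaks of independent experiments for a set of assays that includes a heatmap without tying the sequenced samples to them, so p-values measure the spread between these samples, part of which may be technical. The labels name peripheral blood as the tissue, and the cells are a cultured line: all 10 mast cell markers with values, among them Fcer1a, Kit and Cpa3, were at 1 FPKM or more in every sample, and their summed level was 5349 to 5750 FPKM. Of 11 markers of other blood cells, 5 stayed below 1 FPKM in every sample, among them Lyz2 and Csf1r, and 4 were at 1 FPKM or more in every sample, namely Pf4, Nkg7, Ppbp and Cd3e. The summed level of these 11 was 1216 to 1337 FPKM in Ctrl, 1247 to 1314 in IgE/DNP and 1336 to 1504 in PF, and its part in the results was not tested.

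Levels are given as FPKM, fragment counts scaled to transcript length and library size, so that levels can be compared between genes. The deposited values summed to 573023 to 591539 FPKM in the Ctrl and IgE/DNP samples and to 610206 to 630069 FPKM in the PF samples. The median gene stood at 2.74 to 2.84 FPKM in the first 6 and at 2.30 to 2.37 FPKM in PF. This offset moved together with the PF group and bears on every small difference that involves it.

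The enzymes fall into structural classes I and II, which differ in the fold of the catalytic domain. Eprs belongs to both classes and was counted in neither. In animal cells 8 of the cytosolic enzymes measured here (Eprs, Iars, Lars, Mars, Qars, Rars, Kars and Dars) are held in a multisynthetase complex with scaffold proteins, and Eprs carries the activities for both glutamate and proline. The mitochondrial enzymes are encoded in the nucleus and charge the tRNAs of the mitochondrial genome. Kars and Gars serve both compartments. When tRNAs stay uncharged, the kinase Gcn2 phosphorylates the initiation factor eIF2 and the transcription factor ATF4 accumulates, and many cytosolic synthetase genes are known ATF4 targets. ATF4 binds with C/EBP partners to a composite element, the CARE.

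The promoters were searched for the core of this element, TGATGNAA on either strand (TTNCATCA when read on the other strand), because of this known link to ATF4. RefSeq promoter windows of the GRCr8 build, 250 bases before and 50 after the gene start, were matched for 32 of the 37 members, most cytosolic ones under newer symbols such as Aars1. The element was found in 7 of 17 cytosolic promoters and in 0 of 15 mitochondrial ones, against 3.82% of all 27457 promoter windows. With the upstream 250 bases alone, 5 cytosolic promoters held it, against 3.27% of all promoters. At least 1 window for each of the 7 promoters is shown on the strand of the gene, with the match in capitals, and positions count from 1 at the gene start.
Aars, chr19:55908480-55908509, + strand, position 10: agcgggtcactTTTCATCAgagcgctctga
Cars, chr1:208225334-208225363, - strand, position 18: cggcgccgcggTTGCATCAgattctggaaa
Iars, chr17:15193658-15193687, - strand, position -24: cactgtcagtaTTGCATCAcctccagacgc
Mars, chr7:65023752-65023781, - strand, position -17: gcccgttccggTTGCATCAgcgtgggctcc
Nars, chr18:60275778-60275807, - strand, position -14: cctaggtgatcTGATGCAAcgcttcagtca
Tars, chr2:62114811-62114840, - strand, position -27: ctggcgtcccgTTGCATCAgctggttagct
Yars, chr5:146820190-146820212, + strand, position 39: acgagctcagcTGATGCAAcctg
A match is a description of the letters and not evidence of binding. The 7 matches shown lay between positions -27 and 39, and 6 of them read TTGCATCA or its reverse complement.

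The AP-1 element TGANTCA, the binding site of FOS and JUN dimers and the subject of the study, was found in 1 member promoter, that of Nars, and in 7.33% of all promoters. It occurs there at positions -96 and -48, and neither site overlaps the CARE match of the same promoter.
Nars, chr18:60275860-60275889, - strand, position -96: atggcggccgcTGAGTCActcgcccacctc
Nars, chr18:60275812-60275841, - strand, position -48: cgacgttccgcTGACTCAtatccgcgacgg

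Cytosolic synthetase genes were expressed well above mitochondrial ones. In Ctrl the mean level of the 20 cytosolic genes ran from 21.3 to 382 FPKM with a median of 108 FPKM, and that of the 17 mitochondrial genes from 1.2 to 23.1 FPKM with a median of 6.39 FPKM. The ranges met at 1 point, where mitochondrial Tars2 (23.1 ± 0.664 FPKM, SD, n = 3) stood beside cytosolic Dars (21.3 ± 1.83 FPKM), and the samples of this pair overlapped.

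The glycine enzyme Gars was the most abundant, with 384, 383 and 380 FPKM in Ctrl, 358, 359 and 352 in IgE/DNP and 358, 356 and 355 in PF. The serine enzyme Sars followed with 291, 292 and 287 FPKM in Ctrl, 250, 244 and 246 in IgE/DNP and 224, 223 and 224 in PF. The lysine enzyme Kars stood at 205, 216 and 214 FPKM in Ctrl, 212, 206 and 210 in IgE/DNP and 244, 242 and 228 in PF. Each of these neighbours in the Ctrl order was separated from the next without overlap between samples. The threonine enzyme Tars had 197, 189 and 192 FPKM in Ctrl, 185, 184 and 185 in IgE/DNP and 185, 182 and 175 in PF. In Ctrl its samples overlapped those of the valine enzyme Vars, the fifth in order, so that these neighbours were not separated beyond their spread.

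The 3 lowest genes were mitochondrial. The valine enzyme Vars2 had 1.83, 1.57 and 1.94 FPKM in Ctrl, 1.92, 2.40 and 1.77 in IgE/DNP and 2.58, 2.74 and 1.92 in PF. The methionine enzyme Mars2 had 1.52, 1.34 and 1.33 FPKM in Ctrl, 1.30, 1.17 and 1.15 in IgE/DNP and 1.37, 1.19 and 1.34 in PF. The glutamate enzyme Ears2 had 0.96, 0.77 and 1.87 FPKM in Ctrl, 1.69, 1.32 and 1.49 in IgE/DNP and 0.77, 1.36 and 0.88 in PF, and its values are uncertain because the files also list a near copy, Ears2l1, that can share its reads. Mars2 and Ears2 overlapped in Ctrl.

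**Figure D1:**
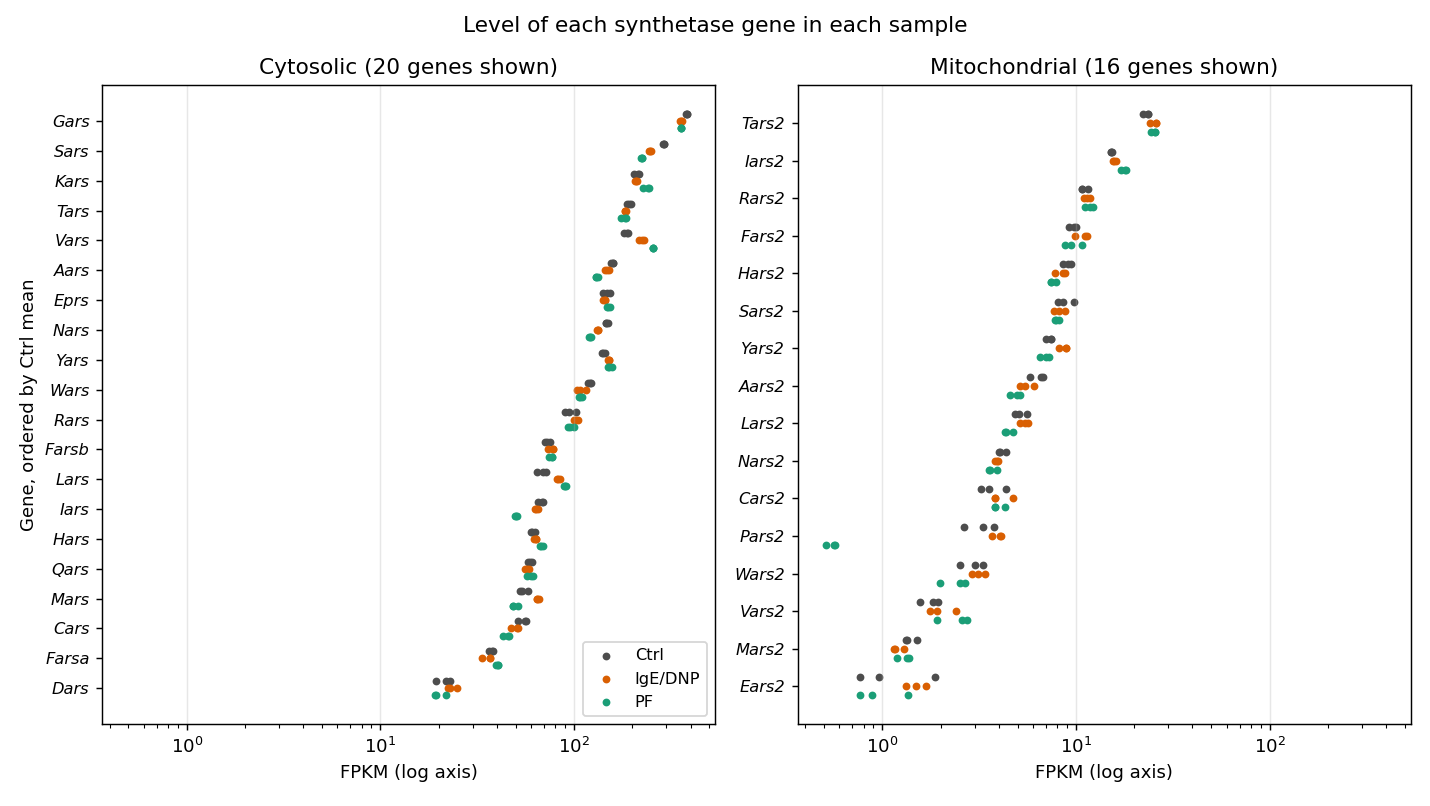
FPKM (log axis) of the 20 cytosolic and 16 of the 17 mitochondrial synthetase genes, ordered by their Ctrl mean, with 1 point per sample and 3 samples in each of Ctrl, IgE/DNP and PF. Cytosolic means ran from 21.3 to 382 FPKM and mitochondrial means from 1.2 to 23.1 FPKM in Ctrl, and the 3 PF samples of Pars2, at 0.51 to 0.57 FPKM, stand apart from its other samples.

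In 15 pairs of a cytosolic and a mitochondrial gene for the same amino acid, Eprs being paired with Ears2, the cytosolic gene was higher in every case. Phenylalanine and proline were not among these pairs, and their Ctrl means went the same way, with Fars2 at 9.66 FPKM beside Farsa at 37.5 and Farsb at 72.9, and Pars2 at 3.24 FPKM beside Eprs at 148. The ratio of the Ctrl means was low for isoleucine (Iars to Iars2, 4.43) and histidine (Hars to Hars2, 6.77). It was largest for valine (Vars to Vars2, 105) and for Eprs to Ears2 (123). Between groups the isoleucine ratio was 4.43 in Ctrl, 4.05 in IgE/DNP and 2.84 in PF, and the leucine ratio (Lars to Lars2) was 13.3, 15.3 and 20.1. The 20 cytosolic genes together made up 0.433 to 0.445% of the summed FPKM in Ctrl, 0.429 to 0.442% in IgE/DNP and 0.400 to 0.409% in PF. The summed level itself was 2562 to 2581 FPKM in Ctrl, 2500 to 2540 in IgE/DNP and 2492 to 2523 in PF, beside the larger total of the PF samples given above.

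Antigen stimulation was compared with control to see which synthetase genes differed after 4 h of IgE receptor crosslinking. Differences were small and went in both directions: 5 genes rose and 4 fell by limma (adjusted p of at most 0.05), and none of the 9 reached 0.5 on the log2(FPKM + 1) scale, on which all fold changes here are given, a size that 3.71% of all genes tested reached when called. The share of members called was 24.3%, against 29.2% of all 10392 genes tested (14.7% higher and 14.4% lower). The samples of the groups did not overlap for 11 cytosolic and 6 mitochondrial genes, against 45.8% of all genes tested. Of the cytosolic genes 4 rose and 4 fell, with a median log2 fold change of -0.05. Of the mitochondrial genes 1 rose and 0 fell, with a median of 0.07, while the median of all genes tested was -0.01. The median absolute change was 0.10 for cytosolic and 0.12 for mitochondrial genes. The SE ran from 0.03 to 0.07 for the cytosolic and from 0.04 to 0.17 for the less expressed mitochondrial genes. Fewer mitochondrial calls therefore do not mean smaller changes.

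The leucine enzyme Lars rose. It had 71.5, 64.6 and 69.4 FPKM in Ctrl and 82.5, 85.1 and 81.8 FPKM in IgE/DNP, groups that did not overlap, and its log2 fold change was 0.28 ± 0.04 (SE, limma adjusted p = 0.00259). Vars had 181, 189 and 191 FPKM in Ctrl and 223, 230 and 217 FPKM in IgE/DNP, again without overlap (log2 fold change 0.26, adjusted p = 0.0016 by limma). The methionine enzyme Mars, which also charges the initiator tRNA, had 54.0, 52.9 and 57.9 FPKM in Ctrl and 64.7, 66.3 and 64.2 FPKM in IgE/DNP (0.24, adjusted p = 0.0039 by limma). All 3 of these genes were above every Ctrl sample in every IgE/DNP sample, and all are class I enzymes. The other genes that rose were Yars2 (0.21) and Yars (0.09), the tyrosine enzymes of the mitochondrion and the cytosol. Yars2 had 7.45, 7.46 and 7.01 FPKM in Ctrl and 8.85, 8.89 and 8.19 FPKM in IgE/DNP, without overlap.

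Sars fell by 0.23 on the log2 scale (SE 0.03, limma adjusted p = 0.000877), and its IgE/DNP samples all lay below its Ctrl samples. The asparagine enzyme Nars had 146, 146 and 150 FPKM in Ctrl and 133, 134 and 132 FPKM in IgE/DNP, without overlap (log2 fold change -0.15, adjusted p = 0.0075 by limma). The tryptophan enzyme Wars (-0.15) had 121, 122 and 118 FPKM in Ctrl and 115, 107 and 104 FPKM in IgE/DNP, also without overlap. Gars fell by 0.10 on the log2 scale. Among cytosolic genes 4 of 9 class I members rose and 1 fell, and 0 of 10 class II members rose and 3 fell. Of the 8 complex members 2 rose and 0 fell, and of the 12 other cytosolic genes 2 rose and 4 fell, or 2 and 2 with values scaled to equal sums. Lars, Mars, Vars, Nars and Sars passed the test in every fit that was run. Without Ctrl replicate 2 or IgE/DNP replicate 2 the count was 5 in place of 9, and with values scaled to equal sums it was 7 higher and 2 lower. Of 14 fits, the Gars call held in 6, the Wars and Yars calls in 7 and the Yars2 call in 8. The classes were less apart in the PF comparisons. In PF against IgE/DNP 2 cytosolic class I members rose and 3 fell, and 3 of class II rose and 4 fell. In PF against Ctrl these were 3 and 4, and 2 and 4.

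**Figure D2:**
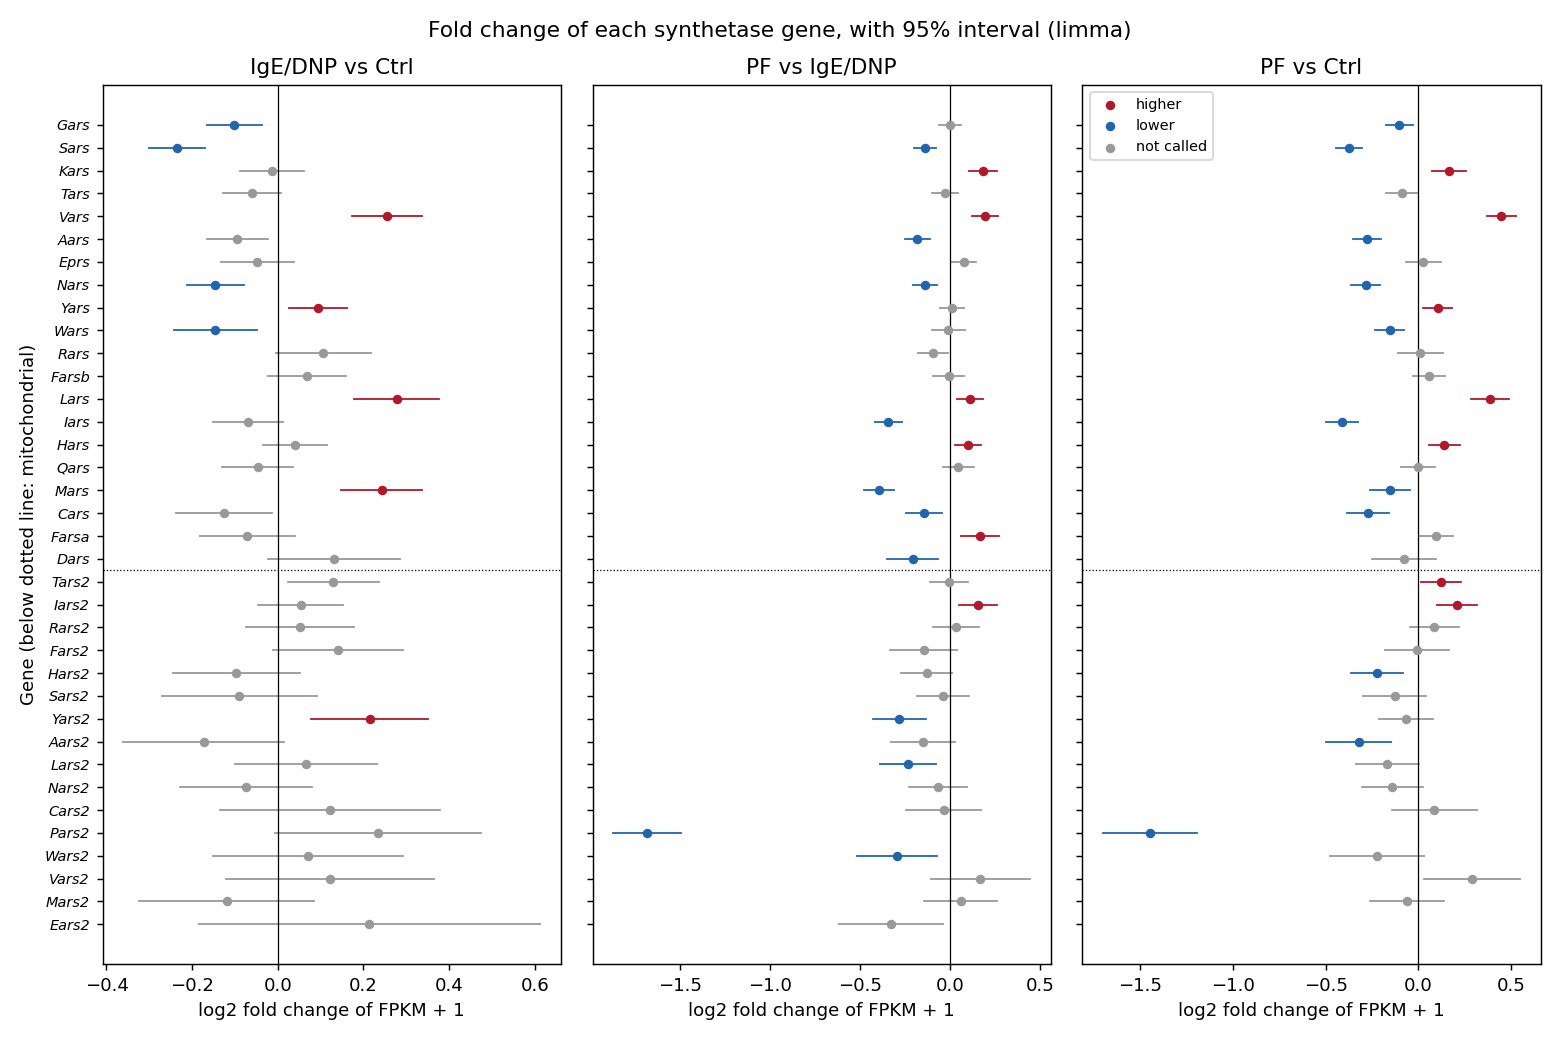
Log2 fold change of FPKM + 1 (x axis) of 36 of the 37 synthetase genes in the 3 comparisons, with 95% intervals from limma (Ears2 was not tested in PF against Ctrl). Red genes rose, blue genes fell and grey genes did not pass an adjusted p of 0.05; Pars2 lies at -1.68 and -1.45 in the PF comparisons, and every other gene shown lies between -0.41 and 0.45.

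PF pretreatment was compared with antigen stimulation alone. Here 6 synthetase genes rose and 12 fell, which is 48.6% of the 37 members against 48.8% of all 10329 genes tested (18.1% higher and 30.7% lower). The groups did not overlap for 14 cytosolic and 6 mitochondrial genes, against 57.6% of all genes tested. Cytosolic genes went both ways, with 5 higher and 7 lower (median -0.01), while of the mitochondrial genes 1 rose and 5 fell (median -0.13). The median of all genes tested was -0.04. These counts depended on the scaling of the samples: with median ratio scaling 8 rose and 6 fell, and with values scaled to equal sums 1 rose and 20 fell. The median of all genes tested moved with them, to 0.02 and to -0.13. The counts under each scaling therefore do not set the members apart from other genes.

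The proline enzyme of the mitochondrion, Pars2, had the largest difference of the family in both comparisons with PF. It stood at 3.31, 3.77 and 2.65 FPKM in Ctrl, at 3.70, 4.12 and 4.07 FPKM in IgE/DNP and at 0.51, 0.56 and 0.57 FPKM in PF. All 3 PF samples were below 1 FPKM, and no sample of another group came near them. The ratio of the IgE/DNP mean to the PF mean was 7.25 in FPKM, and the log2 fold change, which understates the change of so low a gene, was -1.68 ± 0.08 (SE, limma adjusted p = 1.24e-06). Pars2 ranked 32 of 10329 genes by absolute log2 fold change, and it was the only member beyond 0.5, a size that 12.2% of all genes tested reached when called. It entered this test only through the 3 IgE/DNP samples, as no PF sample reached the 1 FPKM of the filter. Its limma p-value and rank therefore describe a gene that was kept because the IgE/DNP group was high. The exact two-sided permutation test gave p = 0.1, the smallest that 3 samples against 3 allow. Between Ctrl and IgE/DNP it did not pass the test (0.23, adjusted p = 0.131 by limma), and those groups overlapped. No CARE or AP-1 match was found in its promoter window, whose upstream part is shown because of the size of this difference.
Pars2, chr5:126662669-126662918, GRCr8, + strand: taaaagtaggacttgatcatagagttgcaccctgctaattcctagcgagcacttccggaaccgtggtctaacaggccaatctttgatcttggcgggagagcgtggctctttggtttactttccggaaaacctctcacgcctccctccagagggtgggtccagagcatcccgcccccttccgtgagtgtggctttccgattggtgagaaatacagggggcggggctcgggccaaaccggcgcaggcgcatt

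Mars and the isoleucine enzyme Iars, both members of the complex, fell next. Mars had 48.4, 48.2 and 51.3 FPKM in PF, below all of its IgE/DNP samples, with a log2 fold change of -0.39 ± 0.04 (SE, limma adjusted p = 4.65e-05). Iars had 63.7, 65.3 and 63.1 FPKM in IgE/DNP and 49.6, 50.9 and 50.5 FPKM in PF (-0.34 ± 0.03, adjusted p = 5.05e-05 by limma). Neither gene's PF samples overlapped the IgE/DNP samples. Iars2, the mitochondrial isoleucine enzyme, moved the other way, with 15.5, 16.2 and 15.7 FPKM in IgE/DNP and 18.13, 17.05 and 17.96 FPKM in PF (0.16, adjusted p = 0.0222 by limma). The Iars2 call held in 8 of 15 fits, and with values scaled to equal sums its difference was 0.06 (adjusted p = 0.367 by limma).

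Of the mitochondrial enzymes, Wars2 had 2.91, 3.38 and 3.13 FPKM in IgE/DNP and 2.51, 2.66 and 1.99 FPKM in PF (log2 fold change -0.29, adjusted p = 0.0348 by limma). Yars2 had 8.85, 8.89 and 8.19 FPKM in IgE/DNP and 6.99, 7.29 and 6.54 FPKM in PF (-0.28, adjusted p = 0.00624). The leucine enzyme Lars2 had 5.16, 5.69 and 5.47 FPKM in IgE/DNP and 4.74, 4.37 and 4.32 FPKM in PF (-0.23, adjusted p = 0.0212). The groups did not overlap for any of these 3 genes. Of 15 fits, the Lars2 call held in 7, the Wars2 call in 8 and the Yars2 call in 14. The cytosolic aspartate enzyme Dars fell by 0.21 on the log2 scale. It had 22.5, 24.8 and 22.9 FPKM in IgE/DNP and 19.4, 19.1 and 21.9 FPKM in PF, without overlap.

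The alanine enzyme Aars (-0.18), the cysteine enzyme Cars (-0.14), Sars (-0.14) and Nars (-0.14) also fell. The genes that rose did so by less than 0.2, namely Vars (0.19), Kars (0.18), Farsa (0.17), Iars2 (0.16), Lars (0.11) and the histidine enzyme Hars (0.10). Farsa encodes the catalytic subunit of the phenylalanine enzyme, and the gene of its partner subunit, Farsb, did not pass the test (-0.01). Of the 18 calls, Vars, Aars, Iars and Mars held in every fit run. Pars2 held in the 11 of 15 fits in which it was tested, and the others were the fits without 1 of the IgE/DNP samples, where under 3 samples reached 1 FPKM, and the fit that asked for 1 FPKM in every sample. The Hars call held in 7 of 15 fits, and its difference was 0.00 with values scaled to equal sums. With the 1 PF sample given 4 h in both label fields alone, 2 members rose and 8 fell.

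**Figure D3:**
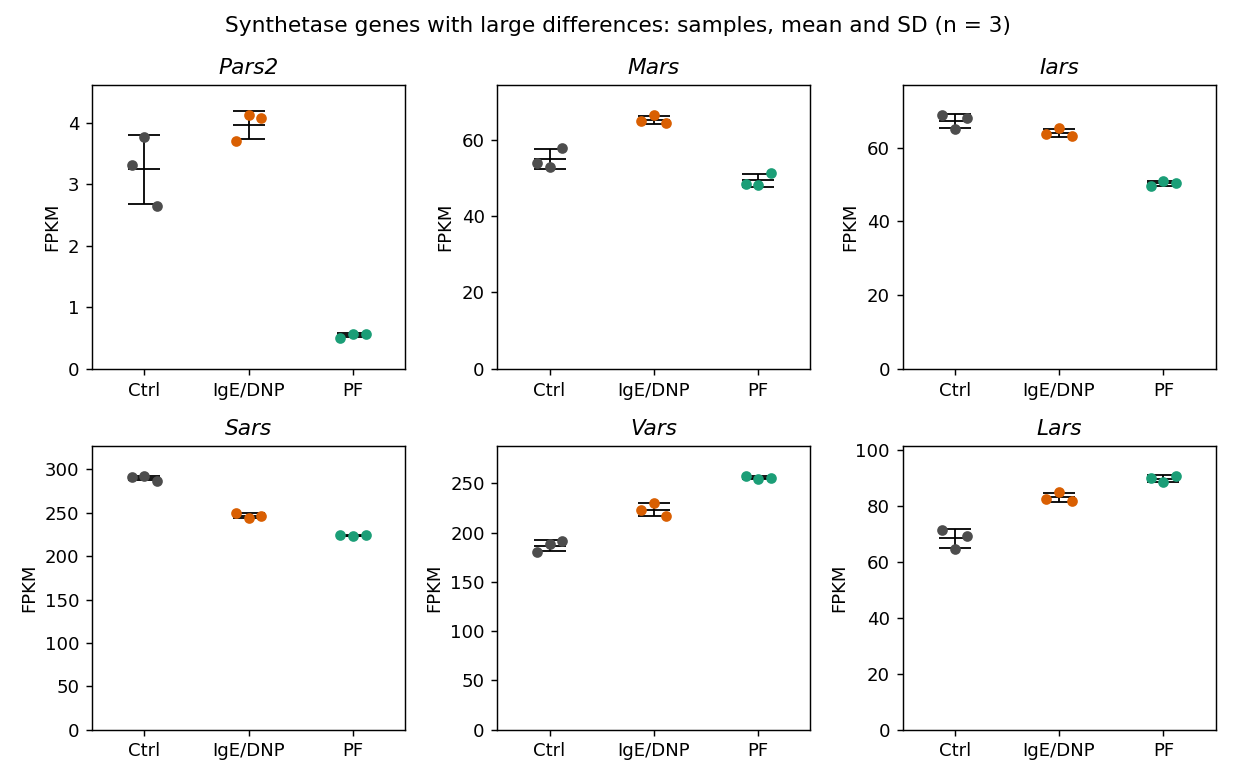
FPKM of 6 synthetase genes in the 3 samples of each group, with the mean and SD (n = 3) and axes that start at 0. Pars2, Mars and Iars were lower in every PF sample than in any IgE/DNP sample, Sars was lower from Ctrl through IgE/DNP to PF, and Vars and Lars were higher in the same order. The step from IgE/DNP to PF was not called for Sars with median ratio scaling, nor for Lars with values scaled to equal sums.

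PF and Ctrl samples were compared as the third pair of groups. This comparison shares its samples with the other comparisons, so its values are given for the members side by side and are not independent of them. Of 36 members tested, 7 rose and 11 fell, 50.0% against 57.7% of all 10361 genes tested (23.1% higher and 34.6% lower). The groups did not overlap for 15 cytosolic and 7 mitochondrial genes, against 64.8% of all genes tested. Ears2 was not tested because too few samples reached 1 FPKM. With median ratio scaling 10 rose and 8 fell, and with values scaled to equal sums 2 rose and 16 fell. The median of all genes tested, -0.05 without scaling, was 0.01 and -0.12 under these scalings.

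Vars rose from 181, 189 and 191 FPKM in Ctrl to 257, 255 and 255 FPKM in PF, with a log2 fold change of 0.45 ± 0.04 (SE, limma adjusted p = 1.68e-05). It had been 0.26 in IgE/DNP against Ctrl and was 0.19 in PF against IgE/DNP. Lars had 90.3, 88.5 and 90.8 FPKM in PF (0.39 against Ctrl, adjusted p = 0.000131 by limma), beside 0.28 and 0.11 in the other comparisons. For both genes the 3 groups did not overlap. The call of Lars in PF against IgE/DNP held in 9 of 15 fits. With values scaled to equal sums that difference was 0.01 (adjusted p = 0.804 by limma).

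The log2 fold change from Ctrl was -0.37 for Sars (adjusted p = 2.38e-05 by limma), -0.41 for Iars (adjusted p = 4.27e-05) and -0.28 for both Nars and Aars. The Ctrl samples of Iars had 68.8, 65.1 and 68.0 FPKM, above all of its PF samples. Aars had 160, 156 and 159 FPKM in Ctrl, 151, 148 and 145 in IgE/DNP and 132, 130 and 129 in PF, and Nars had 121, 123 and 119 FPKM in PF. The mitochondrial alanine enzyme Aars2 had 5.81, 6.74 and 6.63 FPKM in Ctrl, 5.46, 6.10 and 5.12 in IgE/DNP and 4.59, 5.15 and 4.99 in PF (-0.32 against Ctrl, adjusted p = 0.00671 by limma). Cars had 56.5, 55.7 and 51.3 FPKM in Ctrl and 45.9, 46.0 and 43.2 FPKM in PF (-0.27, adjusted p = 0.00181 by limma). Mars was higher in IgE/DNP and lower in PF than in Ctrl (0.24 and -0.15), but the second call held in 10 of 15 fits. It was lost with median ratio scaling (-0.09, adjusted p = 0.156 by limma), without Ctrl replicate 3 (adjusted p = 0.0808), without PF replicate 1 (0.0781) or 2 (0.0749) and with PF replicate 1 alone (0.092). Pars2 differed from Ctrl by -1.45 (adjusted p = 1.55e-05 by limma), and it passed the filter there only through the Ctrl samples.

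Hars and Hars2 sit head to head, and their promoter windows overlap by 243 bases on opposite strands. In PF against Ctrl Hars rose (0.14, adjusted p = 0.00963 by limma) and Hars2 fell (-0.22, adjusted p = 0.013 by limma). Hars had 60.9, 62.7 and 60.2 FPKM in Ctrl and 68.8, 66.8 and 67.5 in PF, while Hars2 had 8.54, 9.14 and 9.45 FPKM in Ctrl and 7.45, 7.47 and 7.86 in PF. With values scaled to equal sums Hars was no longer called (0.06, adjusted p = 0.206 by limma), and with PF replicate 1 alone neither gene was (adjusted p = 0.067 for Hars and 0.0833 for Hars2).

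The cytosolic genes with a CARE match in the promoter and those without one are set side by side as a description. In PF against IgE/DNP, 0 of the 7 genes with a match rose and 5 fell (Aars, Cars, Iars, Mars and Nars), their median being -0.14, and of the 10 without a match 5 rose and 1 fell, with a median of 0.09. In PF against Ctrl, 1 rose and 5 fell with a match (median -0.27), and 4 rose and 2 fell without one (median 0.08). In IgE/DNP against Ctrl the counts were 2 higher and 1 lower with a match, and 2 higher and 2 lower without. Of all genes tested, 18.1% rose and 30.7% fell in PF against IgE/DNP (median -0.04). The shares were 23.1% and 34.6% in PF against Ctrl (median -0.05), and 14.7% and 14.4% in IgE/DNP against Ctrl. With values scaled to equal sums the PF against IgE/DNP counts were 0 higher and 7 lower with a match, and 1 higher and 1 lower without. With median ratio scaling they were 0 and 3, and 7 and 0, the calls of Cars and Nars being lost. The median of all genes tested was -0.13 with equal sums and 0.02 with median ratio scaling. Sars, which fell in all comparisons, held no match in its window.

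**Figure D4:**
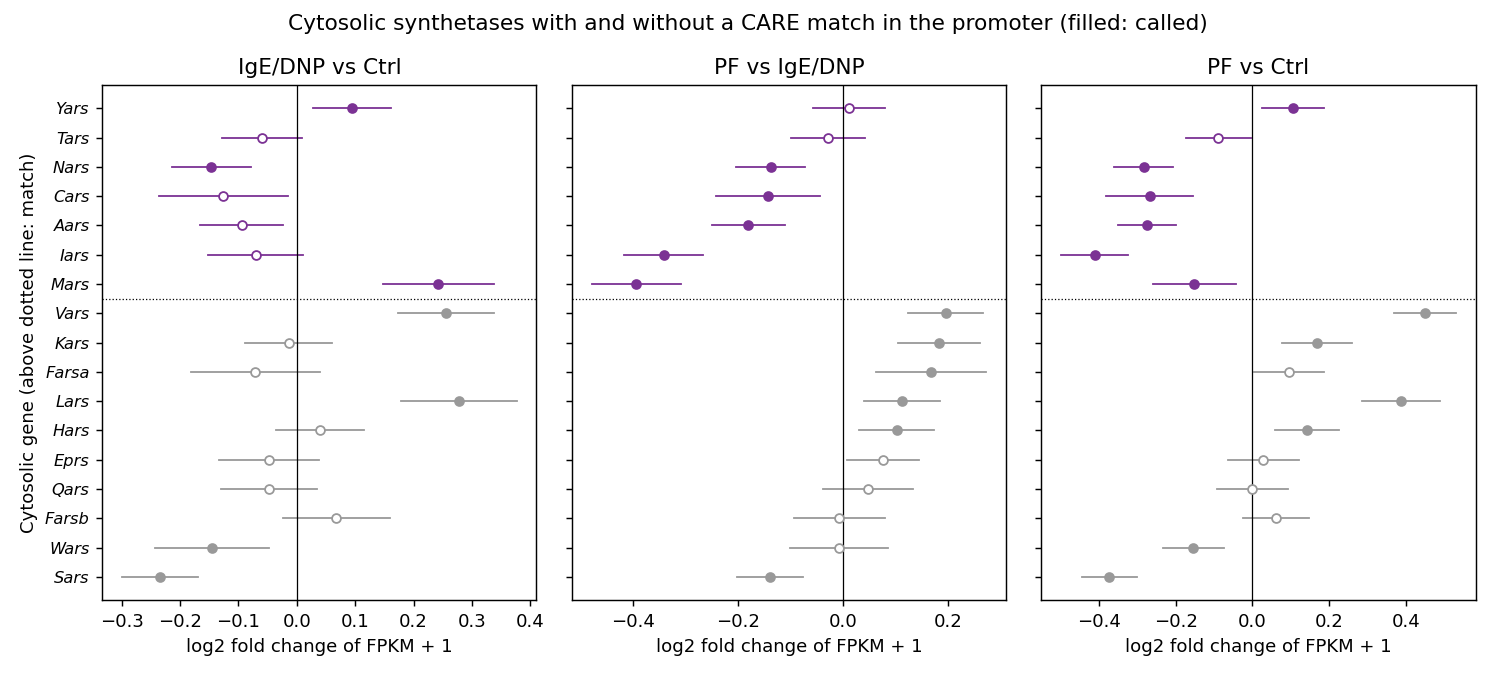
Log2 fold change of FPKM + 1 (x axis) with 95% intervals for the 17 cytosolic synthetase genes with a promoter window, those with a CARE match above the dotted line and filled points for genes that passed the test. In PF against IgE/DNP the 7 genes with a match have a median of -0.14 and the 10 without have a median of 0.09.

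Genes that surround tRNA charging were listed by function, and their counts are read against the 29.2%, 48.8% and 57.7% of all genes called in IgE/DNP against Ctrl, PF against IgE/DNP and PF against Ctrl. The list of amino acid response genes, which are induced through ATF4, had 0 higher and 8 lower of 19 tested in IgE/DNP against Ctrl, their median log2 fold change being -0.09. In PF against IgE/DNP 2 rose and 9 fell, with a median of -0.10 beside -0.04 for all genes, and with median ratio scaling 3 rose and 6 fell. The glutathione-degrading enzyme gene Chac1 had 44.8, 45.7 and 46.1 FPKM in IgE/DNP and 11.2, 12.5 and 11.4 FPKM in PF (-1.87), and the pseudokinase gene Trib3 (-0.62), the transcription factor gene Ddit3 (-0.58) and the stress sensor gene Sesn2 (-0.44) fell with it. The gene Atf4, itself on the list, was not called in IgE/DNP against Ctrl (-0.10, adjusted p = 0.0557 by limma). Nor was it called in PF against IgE/DNP (-0.06, adjusted p = 0.356 by limma). Its level was lower in PF than in Ctrl, with 754, 751 and 750 FPKM in Ctrl and 677, 719 and 634 in PF. Those groups did not overlap, as for 64.8% of all genes tested. Against Ctrl, 2 genes of the list rose and 13 fell in PF. The shares called were 42.1%, 57.9% and 78.9%. Of 9 amino acid transporter genes tested, 2 rose and 5 fell in IgE/DNP against Ctrl, 0 rose and 7 fell in PF against IgE/DNP, and 0 rose and 9 fell in PF against Ctrl, shares of 77.8%, 77.8% and 100.0%. The last included Slc1a4 (-0.75), the cystine exchanger gene Slc7a11 (-0.62), the glycine transporter gene Slc6a9 (-0.62) and the leucine transporter gene Slc7a5 (-0.49), and the counts for PF against Ctrl were the same under both scalings.

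Genes that use the charged tRNA gave other values. All 6 cytosolic elongation factor genes tested rose in PF against IgE/DNP (median 0.19), among them Eif5a (0.22), Eef1b2 (0.22) and Eef2 (0.21). With values scaled to equal sums 4 of 6 rose and 0 fell. Of 8 mitochondrial translation factor genes, 3 rose and 4 fell in PF against IgE/DNP, which became 3 and 1 with median ratio scaling and 1 and 4 with values scaled to equal sums. Among 13 other genes of tRNA charging, 3 rose and 0 fell in IgE/DNP against Ctrl (23.1% called), led by Gatb (0.35), a subunit of the mitochondrial amidotransferase, and the alanine editing gene Aarsd1 (0.34, adjusted p = 0.00163 by limma). In PF against IgE/DNP 2 rose and 2 fell (30.8% called), or 0 and 3 with values scaled to equal sums. The 3 scaffold genes of the complex, Aimp1, Aimp2 and Eef1e1, had 1 higher and 0 lower in IgE/DNP against Ctrl and 0 called in PF against IgE/DNP, where median ratio scaling gave 2 higher and 0 lower and equal sums 0 and 1. Of 13 genes of eIF2 control 1 rose and 2 fell in IgE/DNP against Ctrl (23.1% called), and 4 rose and 4 fell in PF against IgE/DNP (61.5% called), which became 5 and 2 with median ratio scaling and 2 and 6 with equal sums. Beside them, the 8 complex synthetases had 2 higher and 3 lower, and the other 12 cytosolic ones 3 higher and 4 lower, in PF against IgE/DNP. With median ratio scaling these were 4 and 2 for the complex and 3 and 1 for the others, and with values scaled to equal sums 0 and 4, and 1 and 7.

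**Figure D5:**
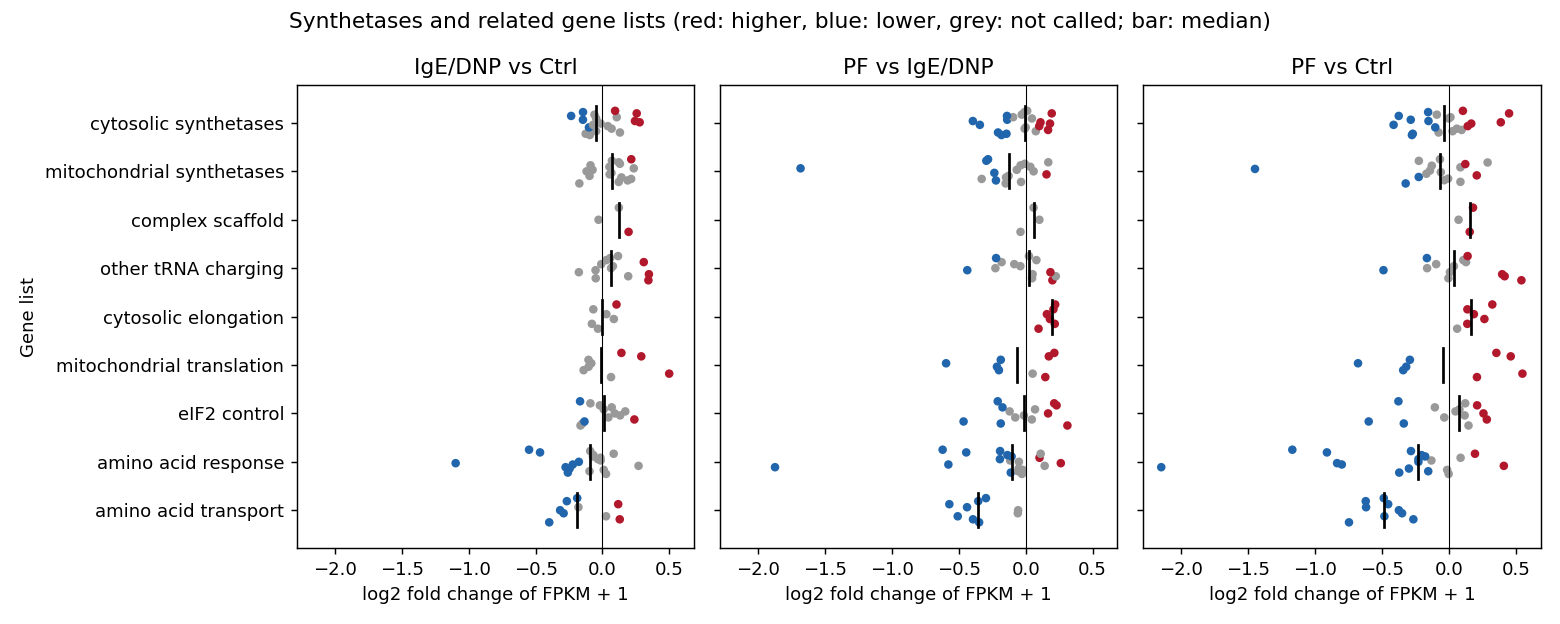
Log2 fold change of FPKM + 1 (x axis) of each gene in the synthetase groups and 7 related lists, with red for genes that rose, blue for genes that fell, grey for genes not called and a bar at the median. Synthetases spread on both sides of 0, amino acid transport genes lie mostly below 0 (median -0.35 in PF against IgE/DNP), and the 6 cytosolic elongation genes were all higher in PF against IgE/DNP.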

How the data were processed

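Reads were cleaned by the authors with SOAPnuke, and HISAT2 2.0.4, Bowtie2 2.2.5 and RSEM 1.2.12 on build rn6 gave the alignments and levels, as the submitters' processing notes and the study's methods state. The annotation, strand setting and read depth are not given in the sources used here. They deposited 1 normalised value per gene and sample, read here as FPKM because it has decimals and unequal sums, although the heading names no unit. The labels name Illumina libraries and the methods a BGISEQ-500.

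Each of the 9 samples lists 38490 rows, of which 18006 have a value. The samples list genes in 5 orders, so they were joined by gene identifier. Groups came from the titles. For each pair of groups limma 3.58.1 in R 4.3.3 (lmFit, eBayes with trend) was run on log2(FPKM + 1) for its own 6 samples, keeping genes that reached 1 FPKM in 3 or more of them. P-values were adjusted by Benjamini-Hochberg over all genes tested, with a threshold of 0.05. A two-sided exact permutation test had a smallest p of 0.1. The test was also run on data simulated from the levels and spreads of the Ctrl and IgE/DNP samples. That simulation held no offset between groups like that of the PF samples, so it does not bear on the PF comparisons. FPKM holds no counts, so no counting error is given and precision rests on 3 replicates. Sequences are from RefSeq (GRCr8), and no rn6 coordinates were used. Figures used matplotlib.

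Any member could be named, but 1 member and 1 promoter match are not reported here singly and enter only the counts, sums and medians. Values per sample are given for the 5 highest and 3 lowest genes and for the 8 largest called changes of each comparison, and others where a result turned on them. At most 4 genes were named per related list, those with the largest called change, and Atf4 was named as well. The members, lists and tests were chosen with earlier results of these data known. Alternatives were the pseudocount (0.1), the filter, the threshold (0.01), all groups in 1 fit, a replicate block, 2 scalings, limma without trend, each sample left out, and, chosen after seeing the data, the PF sample given 4 h alone.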

Additional observations from a re-analysis of the deposited data

How the results depend on the processing

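No called synthetase gene changed sign in any fit. Held in every fit run were Lars, Mars, Vars, Nars and Sars for IgE/DNP against Ctrl, and Vars, Aars, Iars and Mars for PF against IgE/DNP. For PF against Ctrl these were Lars, Vars, Aars, Aars2, Cars, Iars, Nars and Sars. In each PF comparison Pars2 held in the 11 of 15 fits that tested it. The filter removed it from the other fits, which could not test its call. At an adjusted p of at most 0.01 the counts were 5 for IgE/DNP against Ctrl and 10 for PF against IgE/DNP. With PF replicate 1 alone they were 10 for PF against IgE/DNP and 11 for PF against Ctrl, a fit in which the lone sample was assumed to vary like the other group. Leaving out each sample gave 5 to 10, 12 to 19 and 14 to 17 called members. Shares of all genes called in these fits, and in the replicate block below, are not given. The counts therefore describe how stable the members' calls were and do not compare them with other genes.

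Scaling moved the medians. For PF against IgE/DNP the cytosolic median of -0.01 became 0.0551 with median ratio scaling and -0.11 with values scaled to equal sums, and the mitochondrial median of -0.13 became -0.0707 and -0.22. With at least 1 FPKM in every sample, which leaves out both Pars2 and Ears2, the mitochondrial median was -0.0661. For PF against Ctrl the cytosolic median became 0.0276 and -0.12, and the mitochondrial one -0.0134 and -0.12. For IgE/DNP against Ctrl the cytosolic median became -0.0286 with values scaled to equal sums. The median level of the members, 37.5 FPKM, became 36.6 FPKM with median ratio scaling. Leaving out each sample moved the cytosolic median of PF against IgE/DNP between -0.0337 and 0.00681, the mitochondrial median of IgE/DNP against Ctrl between 0.0358 and 0.111, and that of PF against Ctrl between -0.0875 and -0.0506.

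A replicate block left 8, 15 and 17 members called in place of 9, 18 and 18. The labels share replicate numbers across groups without stating a shared batch. Deviations of samples with the same number correlated between -0.08 and 0.19, so the numbers were not taken to pair the samples. In PF against Ctrl 6 of 6 samples correlated best with their own number, in IgE/DNP against Ctrl 2 of 6 and in PF against IgE/DNP 0 of 6, a hint from the data and not from the design. The depth in reads is unknown, which limits what can be said of the lowest genes, Ears2, Mars2 and Vars2.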
